A study of Homo sapiens with 6 samples.

Results

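Cadherins and protocadherins were followed in OVCAR5 cells treated with NTX301, which the submitters describe as a DNA hypomethylating agent. The family was defined by gene symbol, as the CDH, PCDH, clustered PCDHA, PCDHB and PCDHG, FAT and DCHS genes that the annotation marks as protein-coding. The pattern matched 94 symbols, of which PCDHA14 is a pseudogene and was left out, so 93 of 62656 genes were members. OVCAR5 is an established human cell line, grown here in RPMI-1640 medium with fetal bovine serum, and was described by the submitters as an ovarian cancer model. Total RNA was sequenced from 3 libraries of cells given 100 nM NTX301 and from 3 libraries of cells given DMSO, the solvent control, each for 3 days. All 6 libraries come from the same line. Separate cultures are not named in the labels, so the p-values measure only the spread between these libraries, which may be technical.

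Cadherins are calcium-dependent adhesion proteins with repeated extracellular domains that hold neighbouring cells together. Classical cadherins bind like cadherins on the next cell and are tied to actin through catenins, whereas the very large Fat and Dachsous cadherins bind each other across cell borders and act in planar polarity and growth control. The clustered protocadherins lie in the alpha, beta and gamma arrays on chromosome 5. In the alpha and gamma arrays each variable first exon has its own promoter and is spliced to constant exons that the whole array shares, and in neurons methylation of these promoters takes part in choosing which isoforms a cell makes.

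Most cadherin-family genes that could be measured were changed in NTX301-treated cells, and so were 70.5% of all tested genes. Counted gene by gene, 25 of 40 fell and 12 rose, where 35.1% and 35.4% of all tested genes did. However, 14 of the falls were in gamma protocadherins, which share exons. With each protocadherin array counted as 1 feature, 12 of 25 features rose and 10 fell. The largest fall among the tested members was in CDH6, which was 8.06-fold lower. FAT1 and PCDH7, the most abundant members, were lower by 2.15-fold and 2.57-fold, and the summed gamma protocadherins were 2.24-fold lower. PCDH1, CDH3, CDH15, PCDH9 and PCDH19 rose by 2.47-fold to 4.70-fold, while CDH1, the epithelial cadherin, rose by 1.24-fold.

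Of the 93 members, 40 passed the filter on low counts and were tested with edgeR's quasi-likelihood test, with Benjamini-Hochberg adjustment over all 19029 tested genes and a threshold of 0.05. CDH13 passed the filter only through the NTX301 libraries, PCDHB10, PCDHGA5 and PCDHGA8 only through the DMSO libraries, and 36 members through both. Among the tested members 12 rose, 25 fell and 3 did not pass the threshold. Over all tested genes, 70.5% passed, with 35.4% that rose and 35.1% that fell, so a changed gene was the usual case in this comparison. Levels are given as CPM, that is, counts per library total after TMM scaling, unless a sentence says otherwise. The groups did not overlap in CPM for 36 of the 40 members, against 73.7% of all tested genes. Changes of 2-fold or more were called upward in 8 members and downward in 16, beside 13.4% and 8.55% of all tested genes. Of those 16 members, 10 were gamma protocadherins, which share exons, so they are not separate cases. The 16 also take in PCDHB10, PCDHGA5 and PCDHGA8, and the 8 take in CDH13, whose entry through 1 group favoured such a change. Without the TMM factor the median of all genes shifted by 0.21 on the log2 scale, and the share of calls that rose went from 50.3% to 65.0% over all genes. The members were then called 13 up and 20 down, and no tested member changed direction in any alternative.

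**Figure D1:**
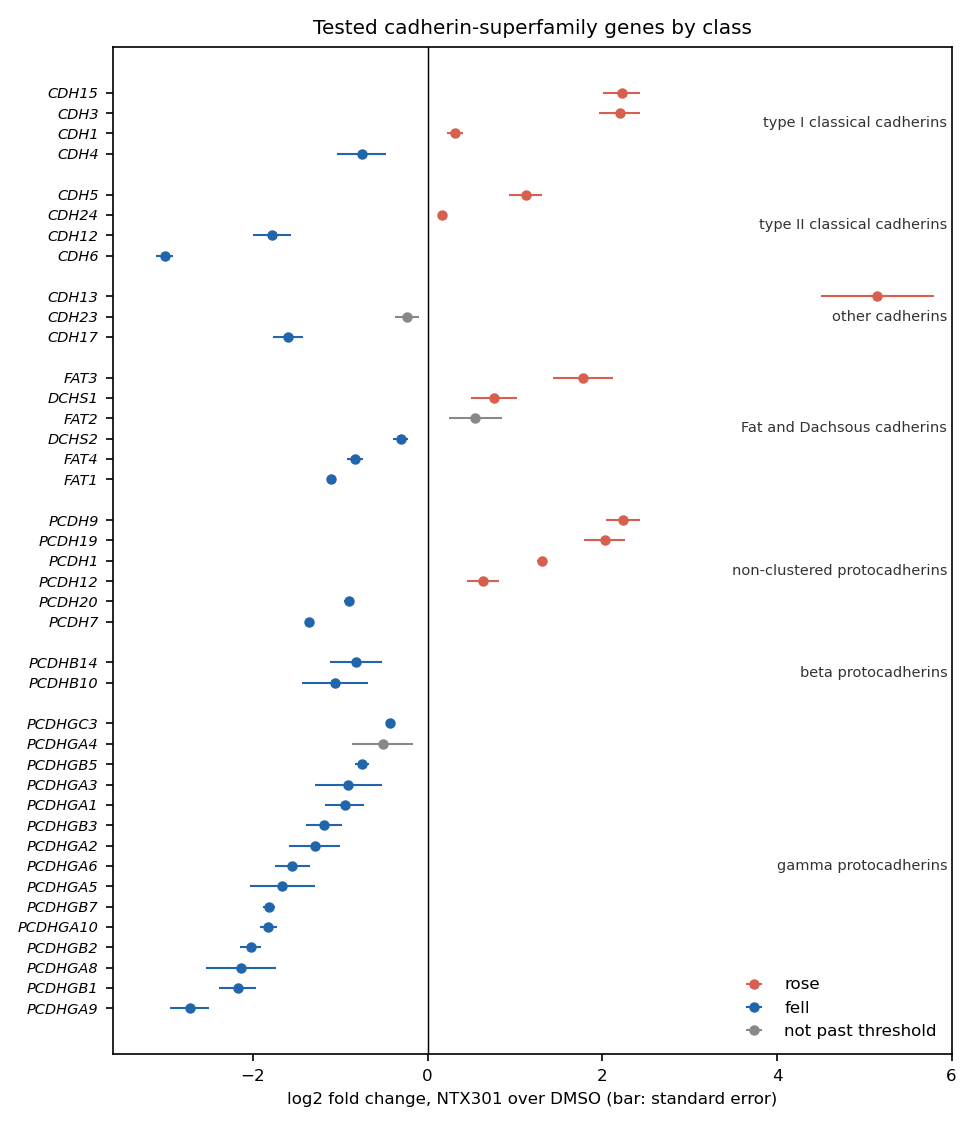
Log2 fold change of NTX301 against DMSO (x axis) with its standard error for each of the 40 tested members, ordered by structural class on the y axis, with colour for the call at an adjusted p of 0.05. All 15 tested gamma protocadherins lie left of 0, and the estimate for CDH13 rests on 1 count in DMSO.

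Libraries held 22131175 to 25743732 estimated reads. Epithelial markers were abundant in every library, with summed levels of 4291 to 4609 CPM in DMSO and 2300 to 2417 CPM in NTX301, and 8 of 10 fell while KRT7 rose. Of 8 markers of Müllerian ovarian carcinoma, SOX17 had 0 counts in all libraries, EMX2 had 1 count in each group and WT1 had 3 and 10, while FOLR1 stood at 14.4, PAX8 at 8.63, MSLN at 4.83 and MUC16 at 3.55 CPM in DMSO. The summed level of this list was 30.2 to 32.7 CPM in DMSO and 24.7 to 29.5 CPM in NTX301. Of the intestinal markers, CDX2 stood at 8.59 CPM in DMSO and 8.50 CPM in NTX301, whereas CDX1 and TFF3 had 0 counts in DMSO and 4 and 7 in NTX301, and GPA33 had 4 and 16. Fibroblast markers summed to 3.40 to 4.86 CPM in DMSO and 15.5 to 17.1 CPM in NTX301, leukocyte markers to 40.0 to 47.4 CPM and 66.1 to 68.1 CPM, and neuronal markers to 75.3 to 82.0 CPM and 158.2 to 172.3 CPM. Most of the leukocyte sum came from CD68 (27.8 and 46.0 CPM) and CD14 (13.6 and 19.0 CPM), while PTPRC, which defines leukocytes, had 0 counts in DMSO and 7 in NTX301. TUBB3 (54.8 and 146 CPM), MAP2 (14.3 and 8.93 CPM) and SYT1 (10.3 and 9.17 CPM) made up most of the neuronal sum, and SNAP25 and NEFL had 0 counts in DMSO and 3 and 1 in NTX301. Of 5 fibroblast genes tested, 3 rose and 1 fell, and 1 of the risen genes, COL3A1, passed the filter only through NTX301. Over all tested genes 35.4% rose and 35.1% fell. PDGFRA and PDGFRB held most of the fibroblast sum in NTX301, and COL1A2 had 0 and 3 counts. The part of these marker changes in the cadherin results was not tested. In bulk RNA, fewer cells with a transcript and less of it per cell cannot be told apart.

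The type I classical cadherins carry the adhesion of epithelia, nerve and muscle, and 3 of the 4 tested members rose. CDH1 encodes E-cadherin, the main adhesion protein of epithelial junctions (chr16:68737225-68835548, GRCh38). Its levels were 8.84, 10.5 and 9.38 CPM in the DMSO libraries and 11.99, 12.49 and 11.10 CPM in the NTX301 libraries. The groups did not overlap, and the rise was 0.31 ± 0.09 (SE) on the log2 scale with an adjusted p of 0.0099. CDH3, P-cadherin of basal epithelia, lies just upstream of CDH1 on the same strand of chromosome 16. It stood at 0.552, 0.499 and 0.481 CPM in DMSO and 2.82, 2.08 and 2.21 CPM in NTX301, a log2 rise of 2.20 ± 0.23 (adjusted p = 4.5e-06). Every treated library was well above every control library. The antisense gene CDH3-AS1, which covers 11.1% of the exonic bases of CDH3, had 3 counts in DMSO and 13 in NTX301, and whether the counting used strand is not stated in the labels. CDH15, M-cadherin of muscle, went from 1.40, 0.707 and 1.16 CPM to 5.27, 5.54 and 4.43 CPM, which was 4.67-fold higher (log2 2.22 ± 0.21, adjusted p = 1.7e-06). CDH4, R-cadherin of retina and brain, was 1.17 ± 0.22 CPM in DMSO and 0.686 ± 0.17 CPM in NTX301 (SD, n = 3), and its call as fallen (adjusted p = 0.030) was lost in 7 alternatives, among them DESeq2 (adjusted p = 0.11) and leaving out DMSO replicate 1 or 3 or NTX301 replicate 2 or 3 (0.060 to 0.12). CDH2, N-cadherin of nerve and mesenchyme, was not tested, with 14 counts in DMSO and 16 in NTX301. The ratio of its CPM was 1.03 with an exact 95% interval of 0.470 to 2.27, which covers counting error only, so a moderate change was not detectable at this depth.

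Among the 13 type II classical cadherins 4 were tested, of which 2 fell and 2 rose, and 3 members had no count in any library. CDH6 encodes K-cadherin, known from kidney and from ovarian and renal carcinomas (chr5:31193750-31329146). Its levels were 46.9, 47.8 and 50.6 CPM in DMSO and 5.60, 7.38 and 5.01 CPM in NTX301. Every control library was far above every treated library, and the log2 change was -3.01 ± 0.10 (adjusted p = 2.6e-10). CDH12, a brain cadherin whose gene lies on the same chromosome arm, fell from 1.996, 2.37 and 2.60 CPM to 0.564, 0.668 and 0.776 CPM (log2 -1.78 ± 0.22, adjusted p = 1.9e-05). CDH24, which binds catenins as other classical cadherins do, was 56.7, 59.0 and 61.3 CPM in DMSO and 64.1, 67.6 and 66.7 CPM in NTX301. The groups were separate but close, with a log2 rise of 0.17 ± 0.04 (adjusted p = 0.0056). CDH5, the endothelial VE-cadherin, went from 1.23, 0.999 and 1.16 CPM to 2.78, 2.20 and 2.41 CPM (log2 1.12 ± 0.19, adjusted p = 0.00025). The 8 other endothelial markers summed to 6.91 to 8.37 CPM in DMSO and 21.0 to 22.4 CPM in NTX301. TIE1 made up most of that rise (3.35 to 17.1 CPM), PECAM1 was 3.71 and 3.10 CPM, and EMCN and ERG had 0 counts in DMSO and 1 and 5 in NTX301. The part of this list in the CDH5 result was not tested. CDH11, the mesenchymal OB-cadherin, had 0 counts in all 6 libraries, which allows up to 0.0439 CPM in DMSO and 0.0394 CPM in NTX301 (3 counts over the group).

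**Figure D2:**
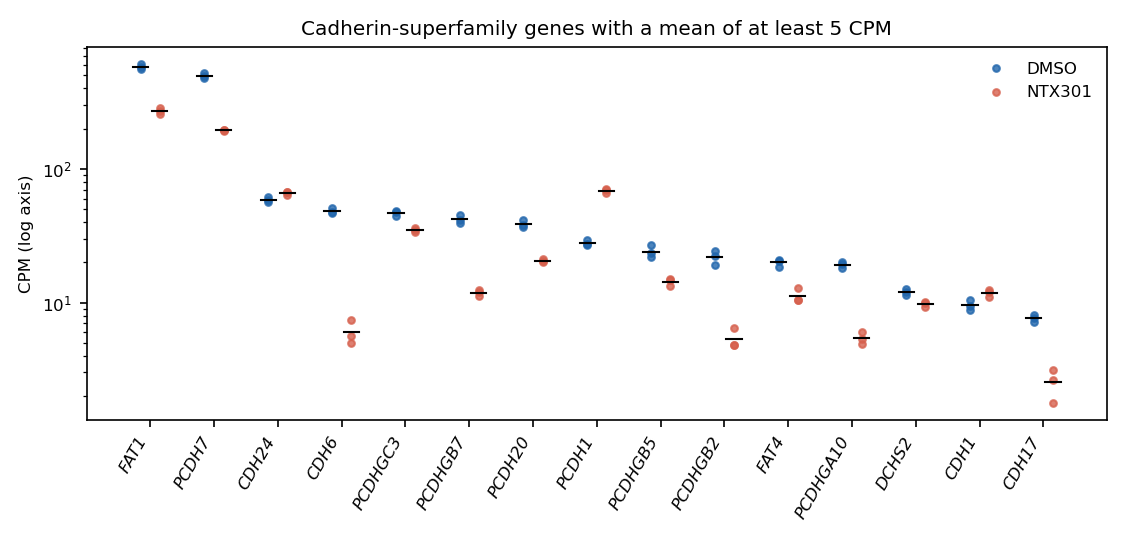
CPM of the members with a mean of at least 5 CPM in each library (points; y axis on a log scale) with the mean of each group (black lines). CDH6 shows the widest gap, from 46.9 to 50.6 CPM in DMSO to 5.01 to 7.38 CPM in NTX301, and CDH24 the narrowest.

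CDH13, CDH16, CDH17, CDH23 and CDH26 differ from the classical cadherins in their membrane anchor or cytoplasmic part. CDH13 encodes T-cadherin, which is held on the membrane by a lipid anchor, and its promoter is a known site of methylation in carcinomas. It had 1 count in the DMSO libraries together and 53 in the NTX301 libraries together, at 0.725, 0.628 and 0.738 CPM. The ratio was 47.6 with an exact 95% interval of 8.19 to 1916 for counting error, and the adjusted p was 1.9e-05. Its antisense neighbour CDH13-AS2 went from 1 count to 93, and where their exons overlap, over 1.26% of the exonic bases of CDH13, reads of the pair may not have been separated. CDH17, the liver-intestine cadherin, fell from 7.69, 7.20 and 8.09 CPM to 2.66, 3.14 and 1.79 CPM (log2 -1.596 ± 0.17, adjusted p = 4.3e-06), while of 6 tested intestinal markers 3 rose and 0 fell by edgeR, by an unadjusted p under 0.05 and by DESeq2. Of those 3, MUC2 and LGR5 passed the filter only through NTX301. By edgeR, 35.4% of all tested genes rose and 35.1% fell. CDH23, which forms tip links of hair cells, was 4.67, 5.53 and 4.14 CPM in DMSO and 4.27, 4.05 and 3.88 CPM in NTX301. These groups overlapped and the adjusted p was 0.13, or 0.040 without DMSO replicate 3.

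All 6 Fat and Dachsous genes were tested, and 3 fell, 2 rose and FAT2 did not pass. FAT1, a giant atypical cadherin that restrains YAP signalling in several tissues, lies at chr4:186587783-186726722. Its levels were 559.6, 578.7 and 609.8 CPM in DMSO and 272.0, 257.4 and 283.8 CPM in NTX301. The groups were far apart, with a log2 change of -1.10 ± 0.05 (adjusted p = 2.1e-09). FAT4, the Fat protein that pairs with DCHS1, fell from 18.5, 20.8 and 20.6 CPM to 12.8, 10.4 and 10.4 CPM (log2 -0.83 ± 0.09, adjusted p = 6.6e-06). DCHS2 was 12.7, 12.1 and 11.5 CPM in DMSO and 9.86, 9.27 and 10.1 CPM in NTX301. Its call as fallen (log2 -0.31 ± 0.08, adjusted p = 0.0052) was lost without the TMM factor (adjusted p = 0.28) and in limma on log2(TPM + 1) (adjusted p = 0.082). DCHS1, the ligand of FAT4, was 0.768 ± 0.23 CPM in DMSO and 1.31 ± 0.16 CPM in NTX301 and was called as risen (log2 0.76 ± 0.27, adjusted p = 0.023). That call was lost in 6 alternatives, including DESeq2 (adjusted p = 0.086) and leaving out DMSO replicate 2 or 3 or NTX301 replicate 2 or 3 (0.067 to 0.087). FAT3, known from the nervous system, rose from 0.328 ± 0.16 to 1.12 ± 0.13 CPM (log2 1.77 ± 0.34, adjusted p = 0.00062). FAT2, an epidermal Fat cadherin, was 0.630 ± 0.19 and 0.919 ± 0.17 CPM with overlapping groups (adjusted p = 0.13, or 0.044 without the TMM factor).

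The non-clustered protocadherins divided by gene, with 4 risen and 2 fallen among 6 tested and 5 members too low to test. PCDH7, a widely expressed delta protocadherin (chr4:30720415-31146805), was 518.9, 497.3 and 481.0 CPM in DMSO and 196.5, 191.4 and 194.5 CPM in NTX301. The 3 treated libraries were nearly equal, and the log2 change was -1.36 ± 0.04 (adjusted p = 1.5e-10). PCDH20 fell less, from 36.7, 41.2 and 37.8 CPM to 21.1, 20.5 and 20.3 CPM (log2 -0.90 ± 0.06, adjusted p = 5e-08). Another annotated gene on its strand, with no name in the files, shares 95.8% of its exonic bases and was given 5 counts in NTX301 replicate 1 and 0 in the other libraries. PCDH1, known from airway epithelium (chr5:141853111-141879246), went the other way. It was 29.1, 27.3 and 27.2 CPM in DMSO and 70.0, 65.6 and 71.0 CPM in NTX301, with a log2 rise of 1.30 ± 0.05 (adjusted p = 8.8e-10). PCDH1 is read toward the gamma cluster, and its 3′ end lies 340.1 kb beyond the end of that cluster, whose summed level fell. PCDH9, a brain protocadherin, rose from 0.807, 1.54 and 1.06 CPM to 5.19, 5.22 and 5.71 CPM (log2 2.23 ± 0.20, adjusted p = 8e-07). PCDH19, mutated in an X-linked epilepsy, rose from 0.807, 0.541 and 1.06 CPM to 3.62, 2.83 and 3.30 CPM (log2 2.03 ± 0.23, adjusted p = 8.8e-06). For both genes every treated library was well above every control library. PCDH12, an endothelial and placental protocadherin, was 1.79 ± 0.34 CPM in DMSO and 2.79 ± 0.27 CPM in NTX301 (log2 0.64 ± 0.19, adjusted p = 0.0090). It overlaps RNF14 on the other strand over 1.58% of its exonic bases, and RNF14 had 2564 counts in DMSO and 5238 in NTX301.

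The sequences just upstream of 2 of these genes are shown because the submitters describe the drug as lowering DNA methylation, which in human DNA sits mainly at CpG. They are the 150 bases before the RefSeq start on the gene's own strand (GRCh38.p14), with each CpG in capitals.
PCDH19 (chrX:100410274-100410423, minus strand): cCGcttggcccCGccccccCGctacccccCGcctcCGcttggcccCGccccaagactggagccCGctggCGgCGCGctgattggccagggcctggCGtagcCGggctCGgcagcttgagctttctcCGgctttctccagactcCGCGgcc
PCDH7 (chr4:30720219-30720368, plus strand): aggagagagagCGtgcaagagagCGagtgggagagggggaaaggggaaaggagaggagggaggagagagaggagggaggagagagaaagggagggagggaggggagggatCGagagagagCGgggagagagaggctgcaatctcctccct
PCDH19, which rose, has 16 CpGs in this stretch, while PCDH7, which fell, has 4. PCDH1, which also rose, has 4 in its own 150 bases (sequence not shown), but that stretch lies inside its GENCODE span. Whether CpG number goes with direction was not tested. A RefSeq promoter window of 300 bases (250 before and 50 after the start) was at hand for 71 of the 93 members. The median number of CpGs in it was 13 in the 4 risen members with an entry and 8 in the 21 fallen. It was 16 over all 27305 genes with an entry. For a gene with several windows, the highest count was taken. The risen members had 26 (PCDH19), 20 (PCDH9), 6 (PCDH1) and 5 (PCDH12). All 15 tested gamma genes have an entry and 14 of them fell, so the median of the fallen rests largely on that array. The other fallen members had 41 (FAT1), 25 (DCHS2), 16 (PCDH7), 14 (CDH4), 13 (CDH12), 8 (PCDHB14) and 5 (PCDHB10). A RefSeq start can lie inside the span that GENCODE gives a gene, as it does for PCDH1. These counts describe the sequence only, since methylation was not analysed here.

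The clustered protocadherins span 726.8 kb of chromosome 5, from PCDHA1 to PCDHGC5, and the 3 arrays drew very different numbers of reads. The alpha array was nearly silent: 10 of its 15 genes had no count in any library, and the array summed to 17 counts in DMSO and 14 in NTX301. The ratio of its CPM was 0.74 with an exact 95% interval of 0.338 to 1.595. The beta array, whose genes have a single coding exon each and share no exon, summed to 2.77 ± 0.23 CPM in DMSO and 2.50 ± 0.30 CPM in NTX301. The fitted difference was -0.15 ± 0.16 on the log2 scale (adjusted p = 0.43), and it was 0.06 without the TMM factor and 0.10 on log2(TPM + 1), so no direction is given. PCDHB10 and PCDHB14 were called as fallen (log2 -1.06 ± 0.38 and -0.82 ± 0.30, adjusted p = 0.025 and 0.027). DESeq2 called neither (adjusted p = 0.15 and 0.11), and the calls were also lost without the TMM factor and in limma on log2(TPM + 1). Leaving out 1 library ended the PCDHB10 call for each library except NTX301 replicate 3, and the PCDHB14 call for each except DMSO replicate 1 and NTX301 replicate 3, with adjusted p up to 0.099 and 0.11. The other 14 beta genes were too low to test.

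The gamma array carried nearly all clustered protocadherin reads. Summed over its 22 genes it was 181.8, 187.4 and 178.4 CPM in DMSO and 80.8, 82.2 and 81.8 CPM in NTX301. The treated libraries were nearly equal, and the change was -1.16 ± 0.04 on the log2 scale (adjusted p = 2.3e-10, where 35.1% of all features fell). This sum does not depend on how reads of shared exons were divided among the genes. Single gamma genes do depend on it, because 27.6% to 64.4% of their exonic bases belong also to other members. Of 15 gamma genes tested, 14 fell and 0 rose. Among the fallen, PCDHGA5 and PCDHGA8 passed the filter only through the DMSO libraries, where they are higher, so their entry favoured a fall. The count of risen genes was also 0 at an unadjusted p under 0.05 and with DESeq2, which called 13 as fallen.

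**Figure D3:**
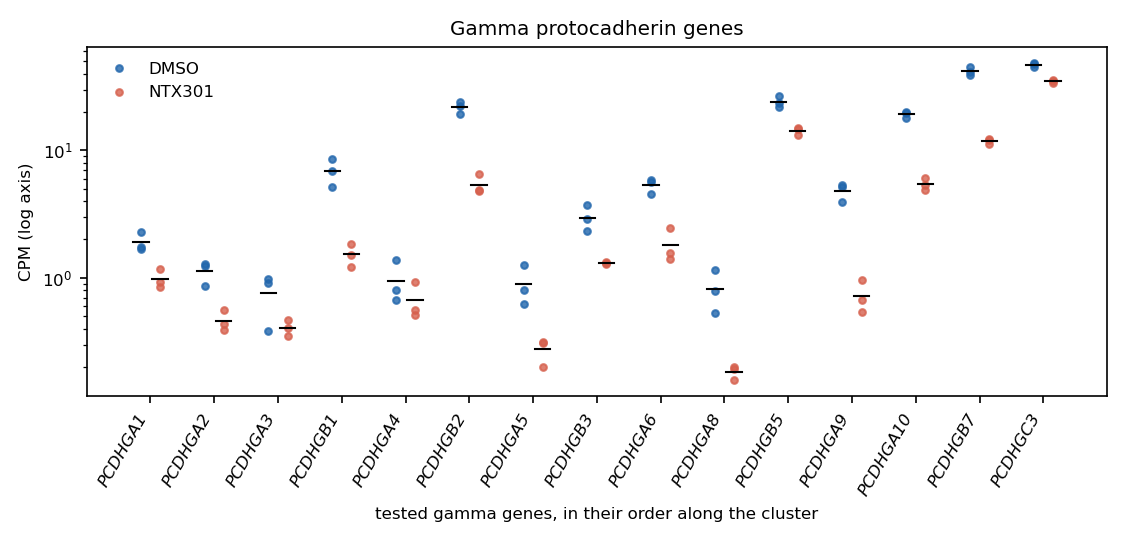
CPM of the tested gamma protocadherins in each library (points; y axis on a log scale) with group means (black lines), in their order along the array. PCDHGC3 went from 44.8 to 48.6 CPM in DMSO to 33.6 to 35.9 CPM in NTX301, and PCDHGB7 from 39.2 to 45.4 CPM to 11.3 to 12.4 CPM.

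PCDHGC3 is one of the C-type isoforms, which are known in neurons to be expressed from both alleles, unlike the A and B types (chr5:141475947-141512979). It was 44.8, 48.6 and 47.5 CPM in DMSO and 35.1, 35.9 and 33.6 CPM in NTX301, the smallest change among the gamma genes called (log2 -0.43 ± 0.05, adjusted p = 1e-05). In limma on log2(TPM + 1) that call was lost (adjusted p = 0.082). PCDHGB7, of the B type, was 39.2, 45.4 and 41.1 CPM in DMSO and 11.3, 12.02 and 12.4 CPM in NTX301 (log2 -1.82 ± 0.07, adjusted p = 7.5e-10). The groups were far apart. PCDHGB2 fell from 22.3, 24.1 and 19.2 CPM to 4.79, 6.48 and 4.85 CPM (log2 -2.03 ± 0.12, adjusted p = 3.5e-08). PCDHGA10, of the A type, fell from 19.6, 18.1 and 20.1 CPM to 4.87, 5.38 and 6.02 CPM (log2 -1.82 ± 0.09, adjusted p = 8.3e-09). PCDHGB5 changed less, from 26.8, 23.6 and 21.8 CPM to 14.9, 13.2 and 14.8 CPM (log2 -0.75 ± 0.08, adjusted p = 6.6e-06). Groups did not overlap for any of these 5 genes.

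Among the gamma genes of lower level, PCDHGA9 fell most, from 5.31, 3.95 and 5.20 CPM to 0.966, 0.668 and 0.544 CPM, which was 6.61-fold lower (log2 -2.72 ± 0.22, adjusted p = 4.4e-07). PCDHGB1 was 6.90 ± 1.70 CPM in DMSO and 1.53 ± 0.32 CPM in NTX301, and PCDHGA6 was 5.32 ± 0.69 and 1.81 ± 0.56 CPM, with log2 changes of -2.17 and -1.55. PCDHGB3 and PCDHGA1 fell by 1.19 and 0.95 on the log2 scale, and PCDHGA8, PCDHGA5 and PCDHGA2 by 2.14, 1.66 and 1.29. PCDHGA3 stood at the threshold (adjusted p = 0.050), its groups overlapped, and its call was lost in 11 alternatives, including DESeq2 (adjusted p = 0.15) and each left-out library except DMSO replicate 3 (0.076 to 0.18). PCDHGA4 did not pass (adjusted p = 0.21). The 7 gamma genes that were not tested had at most 42 counts in a group.

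The division of gamma counts among the genes is given as a description, with no test. PCDHGC3 held 24.6%, 25.9% and 26.6% of gamma counts in the DMSO libraries and 43.4%, 43.7% and 41.1% in the NTX301 libraries. These shares were higher in each treated library than in each control library. PCDHGB7 went from 22.9% ± 1.3 to 14.6% ± 0.6, PCDHGB2 from 11.97% ± 1.1 to 6.58% ± 1.1 and PCDHGA10 from 10.6% ± 0.8 to 6.64% ± 0.7 (SD, n = 3), while PCDHGB5 went from 13.2% ± 1.4 to 17.5% ± 1.3. On the log2 scale the ratio of mean CPM was -1.67 for the 12 A-type genes summed, -1.50 for the 7 B-type genes and -0.43 for the 3 C-type genes. The C-type value is nearly that of PCDHGC3 alone, which held 3209 of 3229 counts in DMSO and 2651 of 2670 in NTX301. Without PCDHGC3 the gamma sum changed by -1.54. The split into types and the shares were added after the values were seen, and they rest on RSEM's division of reads.

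**Figure D4:**
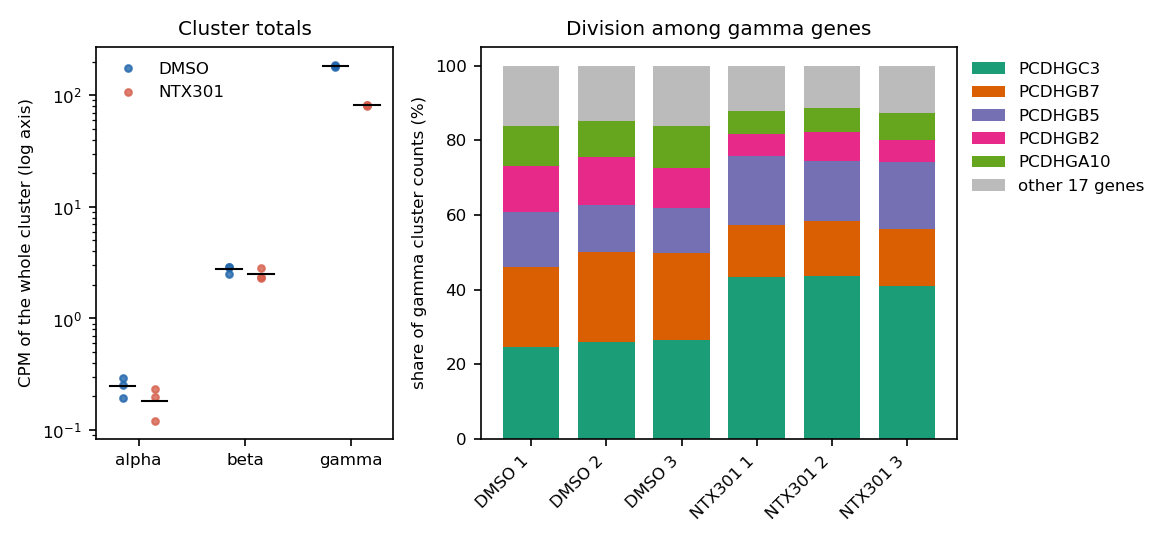
Left, summed CPM of the alpha, beta and gamma arrays in each library (points; y axis on a log scale) with group means (black lines); right, share of gamma counts (%) of the 5 genes with the largest share in DMSO and of the other 17 genes in each library (stacked bars). The gamma array moved from 178.4 to 187.4 CPM in DMSO to 80.8 to 82.2 CPM in NTX301, the alpha and beta libraries of the 2 groups overlap, and the PCDHGC3 share is 24.6% to 26.6% in DMSO and 41.1% to 43.7% in NTX301.

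The promoters of most clustered protocadherin genes carry a conserved element with a CGCT core, which is bound by CTCF. A stretch of 40 bases around it is shown for 6 gamma genes with the smallest or largest changes or the highest levels, and for PCDHA10 of the silent alpha array, on the gene's own strand, with the 6 bases CGCTGT in capitals. The sequences are from RefSeq (GRCh38.p14).
PCDHGA9: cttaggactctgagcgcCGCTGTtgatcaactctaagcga
PCDHGA10: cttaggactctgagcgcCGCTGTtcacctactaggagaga
PCDHGB1: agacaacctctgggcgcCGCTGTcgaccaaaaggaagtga
PCDHGB2: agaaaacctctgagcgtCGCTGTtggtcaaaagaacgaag
PCDHGB5: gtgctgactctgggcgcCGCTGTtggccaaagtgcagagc
PCDHGC3: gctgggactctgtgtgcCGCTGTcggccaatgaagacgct
PCDHA10: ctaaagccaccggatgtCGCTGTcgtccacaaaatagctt
The letters CGCTGT, searched on both strands (ACAGCG on the other), were chosen after the gamma windows had been seen. They occurred in the windows of 17 of 20 gamma genes with an entry (85.0%), 7 of 13 alpha genes (53.8%) and 1 of 14 beta genes (7.14%). Of all 35116 promoter entries of the same length, 11.2% held them. That share is per entry, whereas a clustered gene with several entries was counted if any of them matched. In the gamma genes they lay 39 to 199 bases before the start, and within 100 bases in 16 of the 17. PCDHGB7, PCDHGB3 and PCDHGA11 have no match in this window.

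Members were ranked by level only in TPM, which accounts for transcript length. In DMSO the order was PCDH7 (108.1 ± 2.2 TPM), FAT1 (70.2 ± 5.1), CDH24 (28.9 ± 1.7), PCDHGC3 (18.0 ± 1.9), CDH6 (16.4 ± 0.7), PCDHGB7 (15.1 ± 1.2), PCDH20 (12.6 ± 0.9) and PCDH1 (11.8 ± 0.06). PCDHGC3 and CDH6, PCDHGC3 and PCDHGB7, CDH6 and PCDHGB7, and PCDH20 and PCDH1 differed by less than the sum of their SDs. In NTX301 the order was PCDH7 (47.9 ± 1.3 TPM), FAT1 (39.3 ± 2.2), CDH24 (37.98 ± 1.7), PCDH1 (33.8 ± 2.4) and PCDHGC3 (15.7 ± 0.6), and CDH6 stood at 2.46 ± 0.50. FAT1 and CDH24 were not separated beyond their SDs there. CDH1, the cadherin by which epithelia are usually recognised, was at 3.36 ± 0.38 TPM in DMSO and 4.93 ± 0.17 TPM in NTX301, far under CDH24 and PCDH7 in both groups.

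Of the 53 members that were not tested, 14 had no count in any library and the other 39 summed to 306 counts in DMSO and 389 in NTX301. A fit without the count filter, in which 37.0% of all genes passed, called 3 of them. CDH20 had 0 counts in DMSO and 13 in NTX301, at least 3.89-fold higher when DMSO is set to 3 counts over the group (adjusted p = 0.0060). PCDH18 had 0 and 10 counts, at least 3.00-fold higher (adjusted p = 0.017). PCDHGA7 went from 42 to 16 counts (adjusted p = 0.0060). These 3 genes were named after their values were seen.

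With TMM scaling, the partners of classical cadherins fell more often than they rose. Of 24 tested genes of the adherens junction list, 15 fell and 6 rose, where 35.1% and 35.4% of all tested genes did. The median log2 change of the list was -0.30 beside 0.00 over all tested genes. Without the TMM factor, and likewise in limma on log2(TPM + 1), 10 fell and 9 rose. CTNND1, p120-catenin that keeps cadherins at the surface, fell from 453.3 ± 14.4 to 224.2 ± 4.6 CPM (log2 -1.02 ± 0.04, adjusted p = 9.1e-10). JUP, plakoglobin of junctions and desmosomes, fell from 145.5 ± 0.9 to 88.1 ± 1.3 CPM, AFDN, an actin-binding adaptor of nectins, by 1.16 and PDLIM5 by 1.30 on the log2 scale. CTNNB1, beta-catenin, was 431.3 ± 4.0 CPM in DMSO and 358.3 ± 5.9 CPM in NTX301 (log2 -0.27 ± 0.04, adjusted p = 3.4e-05), and CTNNA1, alpha-catenin, 655.9 ± 10.7 and 546.4 ± 7.7 CPM (log2 -0.26 ± 0.04, adjusted p = 4.7e-05). Both calls were lost without the TMM factor (adjusted p = 0.13 and 0.17) and in limma on log2(TPM + 1) (0.52 and 0.31). AJUBA, an adaptor at actin-linked junctions, rose by 0.73 on the log2 scale.

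Of 7 tested transcriptional repressors of CDH1, 6 rose and 0 fell by edgeR, by an unadjusted p under 0.05 and by DESeq2. By edgeR, 35.4% of all tested genes rose and 35.1% fell. Of the risen repressors, ZEB2 and GSC passed the filter only through the NTX301 libraries. Over the 5 that passed through both groups, 4 rose and the median log2 change was 0.18, against 1.31 over all 7, a split made after the values were seen. SNAI2, the zinc-finger repressor Slug, went from 3.31 ± 0.16 to 41.5 ± 1.9 CPM (log2 3.64 ± 0.07, adjusted p = 2.2e-11), and ZEB2 from 0.100 ± 0.05 to 0.657 ± 0.17 CPM (log2 2.63 ± 0.46, adjusted p = 0.00031). Among 11 tested genes of other cadherin superfamily branches 6 fell and 3 rose, with a median of -0.34, and 1 of the risen genes, CLSTN2, passed the filter only through NTX301. The flamingo cadherins CELSR1 and CELSR2, which act in planar polarity, fell by 1.91 and 1.38 on the log2 scale, while CDHR5, of the intestinal brush border, and the receptor kinase RET rose by 2.22 and 1.47.

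Of 18 tested genes that bind or modify the clustered protocadherin locus, 6 rose and 7 fell. These counts are near the shares over all tested genes, 35.4% and 35.1%. The median of the list was 0.06, whereas without the TMM factor 11 of its genes rose and 4 fell. In limma on log2(TPM + 1) 11 rose and 2 fell. CTCF, which loops the promoters to their enhancers, fell from 91.0 ± 1.9 to 67.1 ± 0.5 CPM (log2 -0.44 ± 0.04, adjusted p = 6.8e-07). The maintenance and de novo methyltransferases DNMT1 and DNMT3B rose by 0.72 ± 0.04 and 1.36 ± 0.09. SETDB1, a histone methyltransferase that silences the locus, fell by 0.66 on the log2 scale. SMCHD1, a repressor of the clusters, was 131.4 ± 10.1 CPM in DMSO and 145.2 ± 5.8 CPM in NTX301. Its groups overlapped and its call as risen (log2 0.15 ± 0.05, adjusted p = 0.031) was lost in 5 alternatives, including leaving out DMSO replicate 1 or 2 or NTX301 replicate 2 or 3 (0.067 to 0.18). In the Fat and Dachsous pathway, which meets the Hippo kinases and YAP, 11 of 21 tested genes fell and 6 rose, whereas without the TMM factor 4 fell and 9 rose. The median was -0.14, and in limma on log2(TPM + 1) 3 fell and 8 rose. NF2, an upstream activator of Hippo signalling, and WWTR1, the co-activator TAZ, fell by 0.68 and 0.50 on the log2 scale, and the kinase STK4 and the DNA-binding factor TEAD4 rose by 0.51 and 0.72.

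**Figure D5:**
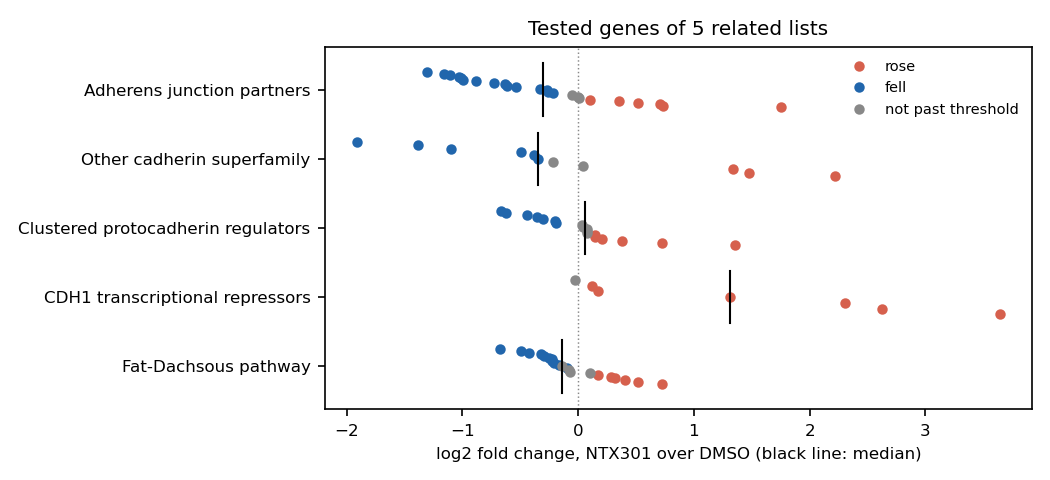
Log2 fold change of NTX301 against DMSO (axis in log2 units) for each tested gene of the 5 pathway lists, 1 point per gene coloured by its call, with the median of each list as a black line. The median of the CDH1 repressors is 1.31, or 0.18 without the 2 genes that passed the filter only through NTX301, and that of the adherens junction partners is -0.30.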

How the data were processed

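The members and all gene lists were chosen with earlier results of these data known. RNA was sequenced from OVCAR5 cells given DMSO or 100 nM NTX301 for 3 days, 3 libraries each; per the labels' protocols, the library kit was NEBNext Ultra II RNA. The 10 nM dose and the methylation arrays named in the labels were not analysed here. Per the file headers, the authors deposited RSEM gene tables whose expected counts are estimated reads per gene and are not normalized. The deposited TPM values are scaled per length and library, and the deposited FPKM values were not used. For the counting, tool versions, genome build and strand setting were not given in the sources used here.

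Of 62703 entries per table, 47 copies on chromosome Y of genes shared by X and Y were added to their X copies. Symbols came from a gene name table (62639 matched), and positions, gene types and shared exons from GENCODE 29 (GRCh38) by stable identifier (58220 matched). Reads that fit several genes are split among them by RSEM's estimate. Expected counts were rounded and tested with edgeR 4.0.16 in R 4.3.3 (filterByExpr, TMM factors 0.9206 to 1.0834, glmQLFit and glmQLFTest on all 6 libraries, treatment as the only term, Benjamini-Hochberg over 19029 genes). The common coefficient of variation was 0.0478. Totals were 22131175 to 25743732 estimated reads. For each cluster, genes were also summed before the fit. CPM used library totals multiplied by TMM factors, and values with ± are SD over 3 libraries for levels and SE for log2 changes. Intervals at 95% are exact and cover counting error only. Library pairs of a group differed by more than sampling noise.

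Members with at least 1 CPM on average were named, those with at least 5 CPM with every library, along with the 5 largest called changes each way and 13 genes fixed by name. Of each pathway list, the 2 largest called changes each way were named along with 6 genes fixed by name; a few genes that these rules or the marker lists take in are not reported here. Promoter sequences were RefSeq windows (GRCh38.p14). Alternatives were DESeq2 1.42.0, its size factors, no TMM factor, no filter, a filter at 1 CPM, limma 3.58.1 on log2(TPM + 1), a replicate block, each library left out and each cluster as 1 feature.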

Additional observations from a re-analysis of the deposited data

How the results depend on the processing

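Over 40 tested members and their alternatives, 464 of 509 comparisons kept direction and side of the threshold, 43 lost the call, 2 gained it and 0 changed direction, and 31 members kept their result in every alternative. Of the 24 list genes that the naming rule takes in, 20 did. With each protocadherin array as 1 feature, 12 of 25 features rose and 10 fell, so falls no longer outnumbered rises. The 14 gamma and 2 beta genes called as fallen were then counted only through their array sums, and of these sums only gamma fell. On log2(TPM + 1), 4318 of all genes fell. The beta sum changed sign without the TMM factor (0.059) and on log2(TPM + 1) (0.099). Among the regulators of the clusters, 11 rose in each of these 2 alternatives, and 4 and 2 fell. In the Fat and Dachsous pathway, 4 and 3 fell. The cause was not tested, but both alternatives raise the median of all genes, by 0.21 and 0.17. With 1 library left out, 11 to 12 members rose and 22 to 24 fell, and the gamma sum lay between -1.19 and -1.15. Over all genes 6400 to 6698 rose and 6319 to 6645 fell.

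Replicate numbers are shared by label only. Deviations of same-numbered libraries correlated at 0.106, 0.003 and 0.074, and DMSO replicate 2 correlated best with NTX301 replicate 3. With a replicate block, 12 members rose and 24 fell, the gamma sum changed by -1.16, and 6837 and 6749 of all genes rose and fell. Low depth limits the alpha and beta genes most, whose sums are 14 to 190 counts in a group.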
